A study of Xenopus laevis with 12 samples.

Results

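Fam46a-MO1 (MO1) was set against Fam46a-MO2 plus Fam46a-MO3 (MO2+MO3) in whole Xenopus laevis embryos at stage 8, a blastula stage. The comparison took 4 of the study's 12 arrays, chosen by their labels: 2 arrays of MO1 embryos and 2 arrays of MO2+MO3 embryos. No array of embryos given the control oligonucleotide CoMO enters the difference itself. All 32539 probe sets other than the array's own controls were tested.

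The oligonucleotides are morpholinos (MOs), antisense molecules that pair with an RNA and block its translation or splicing. Each cell of the 4-cell embryo received its oligonucleotides at the animal pole. MO1 was given at 10 ng per cell, MO2 and MO3 were given together at 7 ng per cell each, and CoMO was given at 10 ng per cell. The stated purpose of the study was to find genes affected by loss of fam46a, and the comparison of MO1 with MO2+MO3 asks which RNAs differ between embryos given different oligonucleotides named for the same gene. The reagents differ in sequence, in the number of oligonucleotides and in dose, and these cannot be told apart here. Whether an oligonucleotide acts on translation or on splicing, the number of embryos behind an array and any shared clutch of equally numbered replicates are not given in the labels. Embryos of the same groups at stage 10.5, the start of gastrulation, gave 2 further arrays per group and are used below as a second set of embryos.

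The FAM46 family, also called TENT5, holds non-canonical poly(A) polymerases, enzymes that add adenosines to the tails of RNAs in the cytoplasm. A Xenopus embryo lives on RNAs stored in the egg until its own genome is switched on around the middle of the blastula stage. RNA levels at stage 8 are therefore largely those of maternal RNAs, whose stability and tail length are regulated.

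Values are log2 values relative to the median of the 6 arrays of a stage, so they give differences between arrays and no absolute level. A difference is MO1 minus MO2+MO3 throughout, and a negative difference means less RNA in MO1. In whole embryos a smaller number of cells of a type and less RNA per cell cannot be told apart. The labelled material was checked against RNAs of the egg. All 12 probe sets of 8 maternal markers, such as dazl, vegt, gdf1 and zar1, had median levels at 4 or above. This log2 level was taken as the upper bound of the array's negative controls. Among all 32539 probe sets, 19909 reached it. Of 71 probe sets for tissues that form after the blastula stage, 6 did so.

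The clearest difference at stage 8 was in dbn1.S (gene 494829), which codes for drebrin, an actin-binding protein. This frog has 2 subgenomes, and the suffixes .L and .S tell apart the copies on the long and the short one. On its first probe set the MO1 arrays stood at -1.98 and -2.22, the MO2+MO3 arrays at 0.13 and 0.07, and the CoMO arrays at 0.04 and -0.04. Both MO1 arrays lay far below the other 4, which differed little among themselves. The difference was -2.20 ± 0.12 (moderated standard error, 2 arrays per group), or 4.59-fold less in MO1, with an adjusted p of 0.00218 in limma. The second probe set gave -2.05 ± 0.14 (adjusted p = 0.00459). In the fit with 1 term per group, the spread behind the p-values was estimated from all arrays of the study, including those outside this comparison. Fitted on the 4 arrays of the reagents alone, or on the 6 arrays of stage 8, the same model called 0 probe sets. The 2 probe sets of dbn1.S above were the only ones of 32539 that the fit on all arrays called at an adjusted p under 0.05 (0.00615%). That fit called 0 higher in MO1 and left 794 at an unadjusted p under 0.05. Without MO2+MO3 replicate 2 that fit called 0 probe sets. The third probe set of dbn1.S had -1.13 and -1.80 in MO1, 0.30 and 0.06 in MO2+MO3 and 0.21 and -0.06 in CoMO, and was not called there (adjusted p = 0.925).

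Over the 4 arrays, the mean of replicate 2 and that of replicate 1 differed by a median of 0.165 in absolute value, and the means of MO1 and of MO2+MO3 by 0.0915. The replicate difference was the larger one in 22214 probe sets (68.3%). Between single arrays, the median absolute difference between replicate 2 and replicate 1 was 0.188 in MO1, 0.181 in MO2+MO3 and 0.164 in CoMO, and that between MO1 and MO2+MO3 was 0.128 in replicate 1 and 0.105 in replicate 2. Replicates with the same number deviated together from their group means, with correlations over probe sets of 0.836 between MO1 and MO2+MO3, 0.864 between MO1 and CoMO, and 0.862 between MO2+MO3 and CoMO. The replicate number was therefore also fitted as a block, which compares MO1 with MO2+MO3 within replicate 1 and within replicate 2. In that fit the median residual standard deviation was 0.104, against 0.175 without the block.

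With the replicate block, 124 probe sets were called between MO1 and MO2+MO3 at stage 8 (0.381%). Of these, 61 were higher in MO1 (0.187%) and 63 were lower in MO1 (0.194%). They carry 82 named probe sets for 77 gene copies and 42 that the annotation leaves without a single gene name. The absolute difference was larger in the replicate 2 pair than in the replicate 1 pair in 83 of the 124, against 44.6% of all probe sets. All 124 had the same sign in both replicate pairs, and differences lay between 1.41-fold and 4.59-fold, with 37 over 2-fold. In 112 of them (90.3%) both arrays of one reagent lay beyond both arrays of the other, against 23.5% of all probe sets. The calls rest on these same arrays, so this share and the equal signs largely follow from the calling and are no separate support. Of the other 12, 8 are named, such as socs1.S, with 0.08 and -0.90 in MO1 and 0.93 and -0.23 in MO2+MO3, where the replicates stood farther apart than the reagents. Apart from the 2 probe sets of dbn1.S, the 122 others had adjusted p between 0.0955 and 1 without the block.

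**Figure D1:**
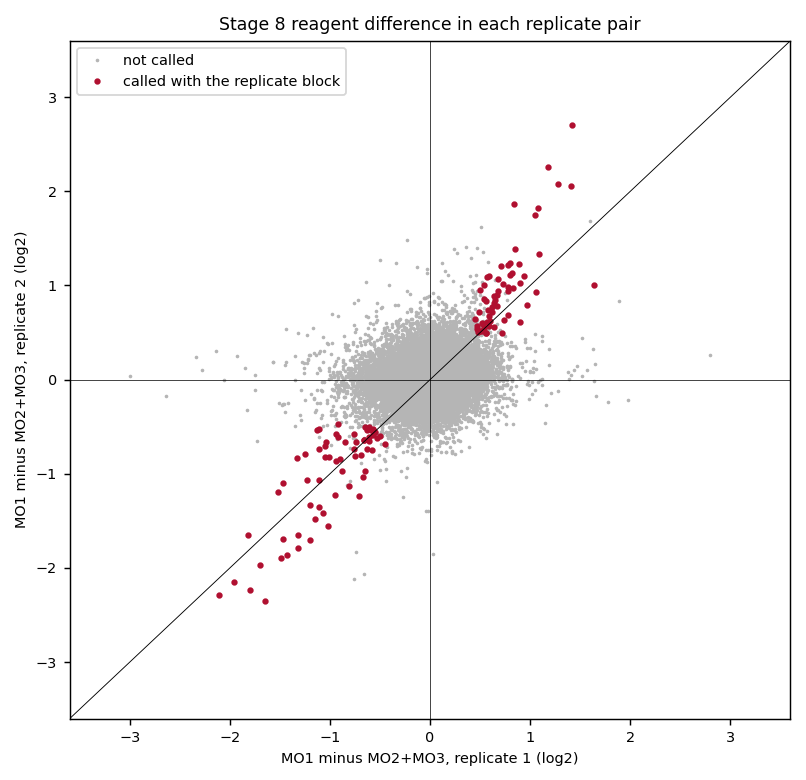
Each point is 1 of 32539 probe sets at stage 8, with the log2 difference MO1 minus MO2+MO3 in replicate 1 on the horizontal axis and in replicate 2 on the vertical axis. The 124 probe sets called with the replicate block (red) lie in the corners where both pairs moved the same way, while points near the horizontal axis were large in replicate 1 alone.

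The number of calls depends on every array. It was 28 without MO1 replicate 1, 56 without MO1 replicate 2, 69 without MO2+MO3 replicate 1, 47 without MO2+MO3 replicate 2 and 46 without either CoMO array, and of the 124 these fits still called 24, 26, 48, 23 and 46. All 124 kept their sign in each of them, but they already had the same sign in both replicate pairs, so this adds little. Where an array of a reagent was left out, the block was estimated partly from the CoMO arrays, so these also entered the difference. With all 4 arrays of the reagents kept, the CoMO arrays act only through the estimate of the spread. Leaving out either CoMO array then gave the same fit of this difference. Those 2 fits are therefore 1 result counted 2 times among the 6 fits below. A call kept in 2 fits, as in pex16.S, fbx28, cox7a2.S and psmd3.S, rests on this 1 result. The 4 arrays of the reagents alone gave 11 calls and the 6 arrays of stage 8 gave 20. Among the 19909 probe sets with a median level at 4 or above, 279 were called. In all 6 of the fits without 1 array, 12 of the 124 were called and 55 in none. The 12 are 11 lower in MO1 and 1 higher in MO1, and the named ones are dbn1.S, fnta.S, gpr89b.L, mkrn2.L, MGC69154, pfdn6.L and sirt3.2.L, all lower in MO1. Of the other genes described here, zcchc9.L was called in 5 of the 6 fits, and rrs1.S, rpp25l.S, uqcrc2.S, XB5920187.S, mcub.L and gins4.L in 4. MGC82636, nmd3.L, apoo.L and socs1.S were called in 3, and pex16.S, fbx28, cox7a2.S and psmd3.S in 2. The calls of selenos.S, chchd5.L, caprin2.L, derl1.L, atp5mc1.L, cox7a2.L, spire1.S and rpl4.L stood in 1. Those of eipr1.L, alkbh6.L, sec22a.S, papola.L, psmb4.L, cyc1.S, sgcb.L, bmp6.S, vstm2l.L and both copies of slc9a3r1 stood in none.

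Among the genes lower in MO1, rrs1.S (gene 495260), a factor for assembly of the large ribosomal subunit, had -0.58 and -1.92 in MO1, 1.07 and 0.43 in MO2+MO3 and 0.15 and -0.15 in CoMO. The MO1 arrays were the lowest and the MO2+MO3 arrays the highest, so CoMO lay between the reagents. The difference was -2.0 ± 0.22 (adjusted p = 0.0114 with the block in limma, 1.0 without it). Its partner rrs1.L had a difference of -0.50 ± 0.09 (adjusted p = 0.0649 with the block).

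Farnesylation shares a subunit with the related geranylgeranylation, encoded by fnta.S (gene 100137632), the alpha subunit of both transferases. Its 3 probe sets all had less RNA in MO1, with differences of -1.83, -1.69 and -1.58 and block adjusted p of 0.00141, 0.00254 and 0.00200 (limma). On the first of them MO1 stood at -1.60 and -1.89, MO2+MO3 at 0.10 and 0.08, and CoMO at -0.08 and 0.12. As in drebrin, the 4 arrays without MO1 lay close together. Without the block the adjusted p of this probe set was 0.0955.

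A gene related to a subunit of the RNA-processing enzymes RNase P and RNase MRP, rpp25l.S (gene 447360), had -1.51 and -1.68 in MO1, 0.31 and -0.03 in MO2+MO3, and 0.51 and 0.03 in CoMO. Its difference was -1.73 ± 0.16 (block adjusted p = 0.00572, limma). The Golgi pH regulator gpr89b.L (gene 446579), known from mammals as an anion channel of the Golgi, had -1.31 and -1.56 in MO1, 0.01 and 0.09 in MO2+MO3 and -0.01 and 0.11 in CoMO, a difference of -1.49 ± 0.13 (0.0057). Both genes were low in MO1 alone. The difference of rpp25l.S lost its call without MO1 replicate 1 (adjusted p = 0.0682) and without MO2+MO3 replicate 2 (0.0516).

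The prefoldin subunit pfdn6.L (gene 779330), part of a chaperone for actin and tubulin, had -1.07 and -0.90 in MO1, 0.45 and 0.30 in MO2+MO3 and -0.10 and 0.10 in CoMO, a difference of -1.36 ± 0.10 (block adjusted p = 0.00254, limma). Its partner copy pfdn6.S had a difference of 0.18 and was not called. The ubiquitin ligase of the makorin family mkrn2.L (gene 735181) had -1.13 and -0.79 in MO1, 0.06 and 0.54 in MO2+MO3, and -0.06 and 0.32 in CoMO, and differed by -1.27 ± 0.08 (0.00172). The sirtuin sirt3.2.L (gene 734623), of a family of NAD-dependent deacylases, had -1.06 and -1.43 in MO1, 0.01 and -0.01 in MO2+MO3 and 0.16 and 0.10 in CoMO, and differed by -1.24 ± 0.10 (0.00408). In each of these 3 genes both MO1 arrays were below all other arrays.

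Also lower in MO1 were eipr1.L (-1.28), an interactor of endosomal tethering complexes, MGC69154 (-1.23), uqcrc2.S (-1.14), a core protein of respiratory complex III, and alkbh6.L (-1.09), a member of the AlkB family of dioxygenases. Their block adjusted p lay between 0.00301 and 0.0321 in limma. The partner copy eipr1.S had a difference of 0.30 and uqcrc2.L one of -0.31, and neither was called.

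Among the genes higher in MO1, the largest named difference was that of selenos.S (gene 447390), a selenoprotein of the endoplasmic reticulum (ER) membrane that takes part in removing misfolded proteins. The MO1 arrays stood at 0.00 and 0.99, the MO2+MO3 arrays at -1.42 and -1.71, and the CoMO arrays at 0.00 and 0.59. MO2+MO3 was thus the group apart from CoMO. The difference was 2.06 ± 0.27, or 4.18-fold (block adjusted p = 0.0242, limma). Its partner selenos.L had 2.34 and -0.74 in MO1, 0.74 and -2.42 in MO2+MO3 and 2.17 and -1.12 in CoMO. There the replicates differed by about as much in every group, and the reagent difference of 1.64 ± 0.28 was the same way in both pairs without passing (adjusted p = 0.0607). The lowest array of selenos.L lay near the negative controls.

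The RNA-binding protein of the caprin family caprin2.L (gene 100158434) had -0.03 and 0.28 in MO1, -0.87 and -1.58 in MO2+MO3, and 0.03 and 0.15 in CoMO. Both MO2+MO3 arrays were below the other 4, and the difference was 1.35 ± 0.21 (block adjusted p = 0.0451, limma). The gene listed as MGC82636 (gene 444043) had 0.08 and 0.46 in MO1, -1.09 and -1.80 in MO2+MO3 and -0.05 and 0.05 in CoMO, a difference of 1.71 ± 0.21 (0.0193). XB5920187.S (gene 398091) had 0.84 and 0.12 in MO1, -0.79 and -0.89 in MO2+MO3, and 0.65 and -0.12 in CoMO, a difference of 1.32 ± 0.15 (0.0140). The MO1 and CoMO arrays overlapped in caprin2.L and XB5920187.S, and in MGC82636 the MO1 arrays lay above those of CoMO, both in each case above MO2+MO3.

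Also higher in MO1 was a small protein of the mitochondrial intermembrane space, chchd5.L (gene 734270), which differed by 1.4 ± 0.18 on 1 probe set (block adjusted p = 0.0242, limma), while its other probe set, at a recovered level of 1.18 to 2.18, gave -0.05. Its MO1 arrays stood at -0.04 and 0.70, its MO2+MO3 arrays at -1.08 and -1.05 and its CoMO arrays at 0.04 and 0.67. The inhibitory subunit of the mitochondrial calcium uniporter, mcub.L (gene 447698), differed by 0.97 ± 0.10 (0.00963), and apoo.L (gene 414670), a subunit of the complex that shapes the inner membrane, by 0.90 ± 0.10 (0.0124). The MO1 arrays of apoo.L stood at 0.15 and 0.16, the MO2+MO3 arrays at -0.68 and -0.82, and the CoMO arrays at -0.10 and 0.10.

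The CCHC zinc-finger gene zcchc9.L (gene 414517) differed by 1.12 ± 0.12 (block adjusted p = 0.0114, limma), and nmd3.L (gene 444280), the export adaptor of the large ribosomal subunit, by 1.0 ± 0.12 (0.0163). On other probe sets of nmd3.L the difference was 0.85 ± 0.14 (0.0598) and, near the negative controls, 0.12. The peroxisome assembly gene pex16.S (gene 432288) differed by 0.99 ± 0.11 (0.0114), fbx28 by 0.96 ± 0.13 (0.0284), and sec22a.S (gene 446716), of a family of vesicle-fusion proteins between ER and Golgi, by 0.88 ± 0.11 (0.0193). The partner sec22a.L had a difference of 0.03. In pex16.S the MO1 arrays were above CoMO, at 0.61 and 0.49, and the MO2+MO3 arrays below it, at -0.45 and -0.44, with CoMO at -0.06 and 0.06.

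**Figure D2:**
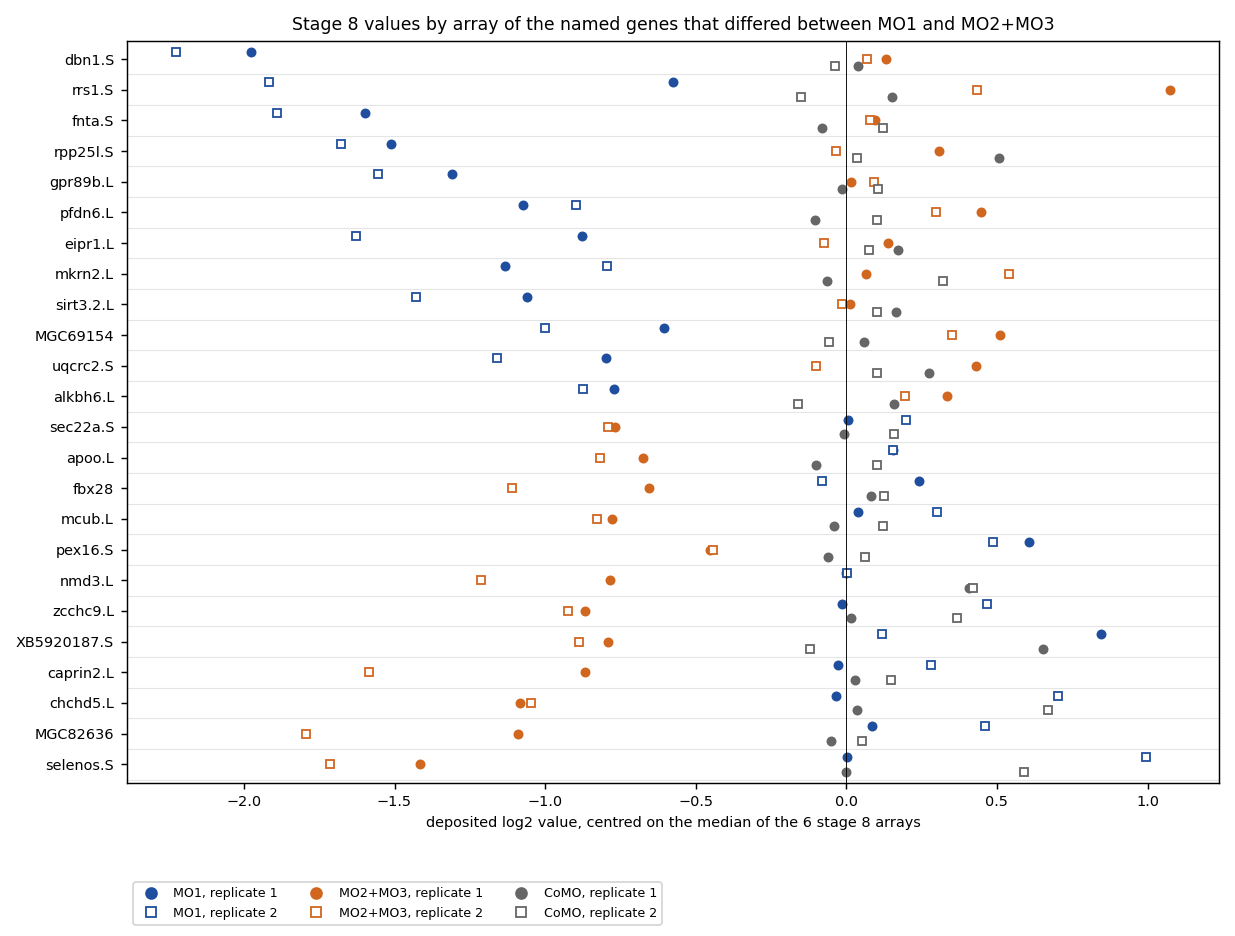
Deposited log2 values at stage 8, relative to the median of the 6 stage 8 arrays, for the 12 named genes of largest difference per direction among those called with the replicate block, 1 probe set per gene. Blue points are MO1, orange MO2+MO3 and grey CoMO, filled circles are replicate 1 and open squares replicate 2. In the upper 12 genes the MO1 points lie to the left, as in dbn1.S at -1.98 and -2.22, and in the lower 12 the MO2+MO3 points do, as in selenos.S at -1.42 and -1.71.

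The called probe sets shared where CoMO lay. In 109 of the 124 (87.9%) the reagent with the lower mean was the one farther from CoMO, against 46.6% of all probe sets. Of the 63 lower in MO1, MO1 was the farther reagent in 56, and of the 61 higher in MO1, MO2+MO3 was the farther one in 53. With the mean of the lower reagent put at 0 and that of the higher at 1, CoMO had a median position of 0.868, with quartiles of 0.732 and 0.976. Its mean lay between the reagents in 94 of the 124 (75.8%), against 34.4% of all probe sets. The calling picks wide gaps between the reagents, and a wide gap more often holds the CoMO mean. The median absolute difference was 0.829 in the 124 and 0.0915 over all probe sets. The excess over 34.4% therefore largely follows from the calling and is no separate support. Against CoMO itself, with the block, 40 probe sets were called in MO1 (0.123%) and 46 in MO2+MO3 (0.141%). Of the 63 lower in MO1, 28 were called in MO1 against CoMO and 0 in MO2+MO3 against CoMO, and of the 61 higher in MO1, 2 were called in MO1 and 29 in MO2+MO3. These comparisons share arrays with each other and with the difference between the reagents, so the counts are not separate evidence.

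**Figure D3:**
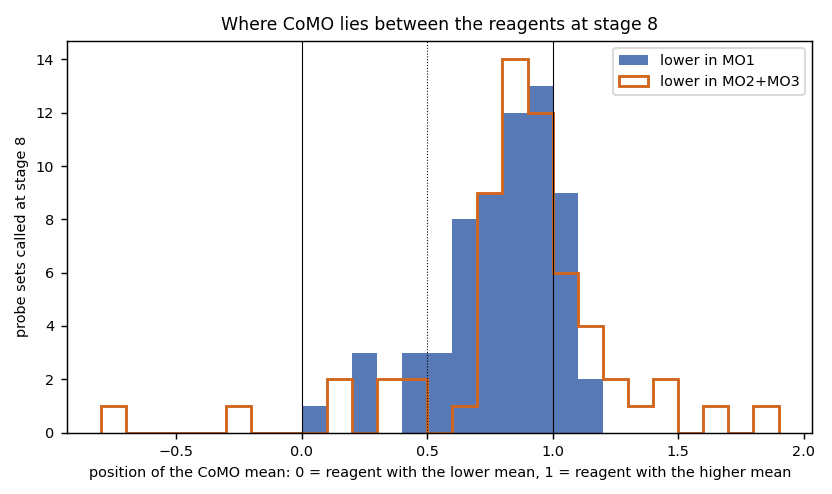
Position of the CoMO mean for the 124 probe sets called at stage 8, scaled for each probe set so that 0 is the mean of the reagent with the lower value and 1 the mean of the reagent with the higher value, against the number of probe sets. Filled bars are the 63 lower in MO1 and the outlined bars the 61 lower in MO2+MO3, and both pile up near 1, around the median of 0.868.

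Some large differences were not called. Of 51 probe sets with a mean difference over 2-fold, 14 were not called with the block, and 10 of these are named. Some had the same sign in both pairs, such as selenos.L above. The MO1 arrays of drg2.S stood at -0.76 and -1.61 and its MO2+MO3 arrays at -0.02 and 0.22 (block adjusted p = 0.0607, limma). For atp5pb.L they stood at 0.06 and -2.17 and at 0.81 and -0.06 (0.0908). Others were large in replicate 1 alone. The inhibitor of inflammatory signalling tnfaip3.S had 0.37 and -0.54 in MO1, 3.01 and -0.37 in MO2+MO3, and 2.97 and -0.70 in CoMO, so replicate 1 of MO2+MO3 and of CoMO stood high and MO1 did not (adjusted p = 0.380, limma). The ectonucleotidase nt5e.S followed the same order, with 0.04 and -0.26 in MO1, 3.04 and -0.30 in MO2+MO3 and 3.26 and -0.04 in CoMO. The complement gene c9.L went another way, with 2.75 and -0.10 in MO1, -0.05 and -0.36 in MO2+MO3 and 2.06 and 0.05 in CoMO. Apart from selenos.L, these genes were named after their values were seen. For nt5e.S and c9.L the lowest array lay near the negative controls, and for tnfaip3.S no level was recovered. A change over 2-fold the same way in both pairs was found in 30 probe sets (0.0922%), of which 9 were higher (0.0277%) and 21 lower in MO1 (0.0645%), and 29 of the 30 were called.

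Under its present symbol tent5a.L (gene 100158383), fam46a was measured by 2 probe sets. On the first, MO1 stood at 0.15 and -0.23, MO2+MO3 at 0.73 and -0.30 and CoMO at 0.38 and -0.15. On the second, MO1 stood at 0.60 and -0.46, MO2+MO3 at 0.02 and -0.10, and CoMO at 0.21 and -0.02. The arrays of all groups overlapped on both. The differences were -0.25 ± 0.17 and 0.11 ± 0.20 (block adjusted p = 0.653 and 0.898, limma), at recovered median levels of 2.30 to 4.30 and 2.46 to 4.46, near the negative controls. The family member tent5b.S (gene 447449) differed by 0.19 ± 0.12 and 0.06 ± 0.12 on its 2 probe sets (0.632 and 0.914). An oligonucleotide that blocks translation need not change the level of its RNA, so these probe sets do not check the labels.

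Gene groups were described over 16 lists besides the family, and no list was tested as a set. Counts of calls in the lists are those with the block, which called 0.381% of all probe sets, 0.187% higher and 0.194% lower in MO1. List members are all named, and in most lists the majority had a median level at 4 or above, so these shares compare unlike probe sets. Of the 15495 probe sets with 1 gene, 82 were called. A fit of the 19909 at 4 or above called 279. Of the RNAs for maternal mRNA storage, cytoplasmic polyadenylation and clearance, 2 of 102 probe sets (1.96%) were higher in MO1 and 0 lower, with a median difference of 0.04 against 0.01 over all probe sets. The 2 are caprin2.L and papola.L (gene 399024), the canonical nuclear poly(A) polymerase, which differed by 0.49 ± 0.08 (block adjusted p = 0.0458, limma), while its other probe set gave -0.01. Among 45 probe sets of germ plasm and localized maternal RNAs, 1 was called (2.22%), spire1.S (gene 446378), an actin nucleator, at -0.97 ± 0.14 (0.0322). None of 73 probe sets for the maternal Wnt and axis genes was called.

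Genes that the embryo itself begins to transcribe around this stage formed a further list. Of 129 probe sets for early zygotic genes, 47 had a median level at 4 or above, and the median difference was 0.04. None was called at stage 8, where 0.381% of all probe sets were. At that share few calls would fall among 129 probe sets, so their absence says little about this list. The lowest was tbxt.L at -0.45 and the highest gsc.S at 0.67. At stage 10.5, 5 were higher and 11 lower in MO1, where 9.75% of all probe sets were called, with a median difference of -0.14. Whether this list differed between the stages was not tested.

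Ribosome biogenesis had 6 of 148 probe sets called (4.05%, against 0.381% of all probe sets), 2 higher and 4 lower in MO1. Besides rrs1.S and rpp25l.S these included nmd3.L and zcchc9.L on the other side, and the list's median was -0.04. The respiratory chain and ATP synthase had 5 of 97 called (5.15%), 2 higher and 3 lower in MO1. Both copies of the complex IV subunit cox7a2 were lower in MO1, with differences of -1.02 ± 0.13 for cox7a2.L (gene 100036781) and -0.90 ± 0.10 for cox7a2.S (gene 447180) and block adjusted p of 0.0211 and 0.0112 (limma). The MO1 arrays of cox7a2.S stood at -0.35 and -0.45, the MO2+MO3 arrays at 0.58 and 0.42 and the CoMO arrays at 0.01 and -0.01. Higher in MO1 were the ATP synthase subunit atp5mc1.L at 0.77 ± 0.12 (0.0450) and cytochrome c1, cyc1.S, at 0.63 ± 0.10 (0.0436), so that genes for subunits of complex III were called in both directions.

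Among ER translocation, folding and degradation genes, 2 of 114 probe sets were called (1.75%, against 0.381% of all probe sets), both higher in MO1. Beside selenos.S this was derl1.L (gene 444811), the ER membrane protein derlin-1, which in mammals works with selenoprotein S in the export of misfolded proteins. Its MO1 arrays stood at 0.12 and 0.08, its MO2+MO3 arrays at -0.56 and -0.99 and its CoMO arrays at 0.12 and -0.08, a difference of 0.87 ± 0.11 (block adjusted p = 0.0239, limma). The list's median was -0.01, and 52 of its 114 probe sets had a positive difference.

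The proteasome and chaperonin list had 2 of 98 called (2.04%, against 0.381% of all probe sets), both higher in MO1: psmb4.L, a subunit of the catalytic core, at 0.67 ± 0.09 (block adjusted p = 0.0242, limma) and psmd3.S, a subunit of the regulatory particle, at 0.73 ± 0.08 (0.0112). Other probe sets of psmd3.S gave -0.27 and -0.05. Of the cell cycle and replication genes, 1 of 153 was called (0.654%), gins4.L (gene 414663), a subunit of the replicative helicase, with -0.02 and 0.02 in MO1, -0.80 and -0.91 in MO2+MO3 and 0.39 and 0.31 in CoMO. Its difference was 0.86 ± 0.08 (0.00816), with MO2+MO3 below all other arrays.

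The 3 calls among 150 probe sets of the actin and intermediate filament cytoskeleton (2%, against 0.381% of all probe sets) are the 3 of dbn1.S. The vesicle coat and Golgi list had 1 of 125 (0.8%), gpr89b.L, and the innate immune and RNA-sensing list 1 of 46 (2.17%), socs1.S (gene 443921), an inhibitor of cytokine signalling, at -0.76 ± 0.09 (block adjusted p = 0.0152, limma), while its other probe set gave 0.19. None was called among 55 probe sets of the p53 response and apoptosis, where the values ran from -0.43 in cdkn1a.L to 0.40 in casp10.L. None was called among 143 of the spliceosome or among 71 for tissues that form after the blastula stage, whose median difference was 0.01.

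Cytosolic ribosomal proteins stood apart as a group in 1 pair of arrays. Their 142 probe sets had a median difference of -0.19, and 122 of them (85.9%) were negative, against 47.5% of all probe sets. In replicate 1 the median difference was -0.50 and in replicate 2 it was 0.06. The list's median value was -0.41 and 0.12 on the MO1 arrays, 0.05 and 0.06 on the MO2+MO3 arrays and -0.25 and 0.01 on the CoMO arrays, so MO1 replicate 1 and CoMO replicate 1 were low. Only rpl4.L (gene 380237) was called (0.704% of the list), at -0.83 ± 0.13 (block adjusted p = 0.0458, limma), and its partner rpl4.S had a difference of -0.04. At stage 10.5 the list's median was 0.03. The part of these arrays' RNA quality or loading in this was not tested.

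**Figure D4:**
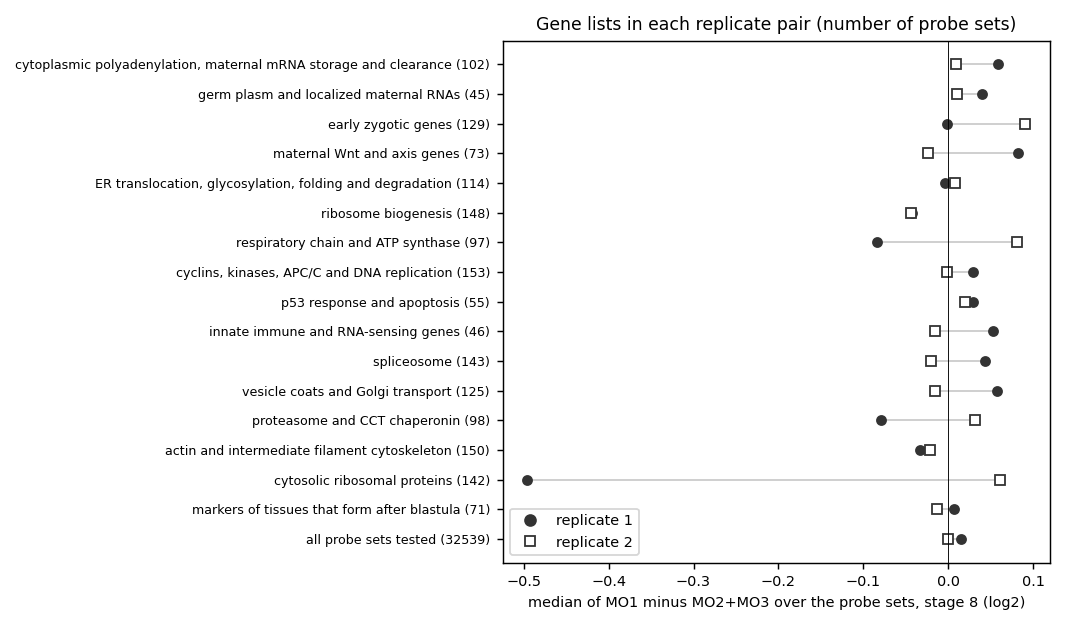
Median log2 difference MO1 minus MO2+MO3 at stage 8 over the probe sets of each gene list, with the number of probe sets in parentheses, for replicate 1 (filled circles) and replicate 2 (open squares). The cytosolic ribosomal proteins lie at -0.50 in replicate 1 and 0.06 in replicate 2, and the other lists stay within about 0.1 of 0.

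Paired gene copies were compared where the array measures both. Of 74 called copies with a .L or .S suffix, 27 have a measured partner, and the partner's mean difference had the same sign in 23. A gene with both copies called enters once for each copy. The share of equal signs over all copy pairs of the array was not worked out, so 23 of 27 is a description only. Partners were called in 4 of the 27 cases, where 0.381% of all probe sets were called. The 4 are both copies of cox7a2 and both copies of slc9a3r1, a scaffold protein at the plasma membrane. Its copies differed by 0.58 in slc9a3r1.L and 0.54 in slc9a3r1.S. Probe sets can bind RNA of both copies, so a value is not certain to belong to 1 copy. Other probe sets exist for 15 of the called gene copies, and of these 18 probe sets 11 had the sign of the call.

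In embryos collected at stage 10.5 the reagents differed in more genes. There 179 probe sets were called without the block (0.55%) and 3171 with it (9.75%), with 1419 higher in MO1 (4.36%) and 1752 lower in MO1 (5.38%). The differences of the replicate pairs correlated over probe sets at 0.655 at stage 10.5 and 0.213 at stage 8, a description over 32539 probe sets that share their arrays. The median absolute difference was 0.120 at stage 10.5 and 0.0915 at stage 8.

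The calls of stage 8 were set beside these other arrays. Of the 124, 118 had the same sign at stage 10.5 (95.2%), against 56.3% of all probe sets. There 101 of the 124 were also called with that sign, and 0 with the opposite sign. In this fit both stages share the estimate of the spread of a probe set, so the calls of the stages are not independent. Over all 32539 probe sets, 2217 were called at stage 10.5 with the sign of stage 8 and 954 with the opposite sign. The median absolute difference at stage 8 was 0.829 in the 124 and 0.0915 over all probe sets, so these shares compare unlike probe sets. The 101 are 81.5% of the calls at stage 8 and 3.19% of those at stage 10.5. With each stage fitted on its own 6 arrays, 17 of 20 calls at stage 8 were shared, and on the 4 arrays of the reagents alone 10 of 11 were. Without MO1 replicate 2 the share was 25 of 56 and without MO2+MO3 replicate 2 it was 19 of 47, while the other left-out arrays gave between 23 of 28 and 44 of 46.

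Drebrin differed by -2.62 ± 0.10 at stage 10.5 on its first probe set and mkrn2.L by -2.03 ± 0.08, both with block adjusted p of 2.97e-05 (limma). MGC82636 differed there by 2.45 ± 0.21, caprin2.L by 1.90 ± 0.21 and selenos.S by 1.68 ± 0.27. For fnta.S, gpr89b.L and pfdn6.L the differences were -1.32, -1.16 and -1.09. By contrast rrs1.S had -0.54 ± 0.22 at stage 10.5 and cox7a2.L -0.14 ± 0.13, with adjusted p of 0.187 and 0.584, and the change between the stages passed for neither (0.0724 and 0.0643).

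**Figure D5:**
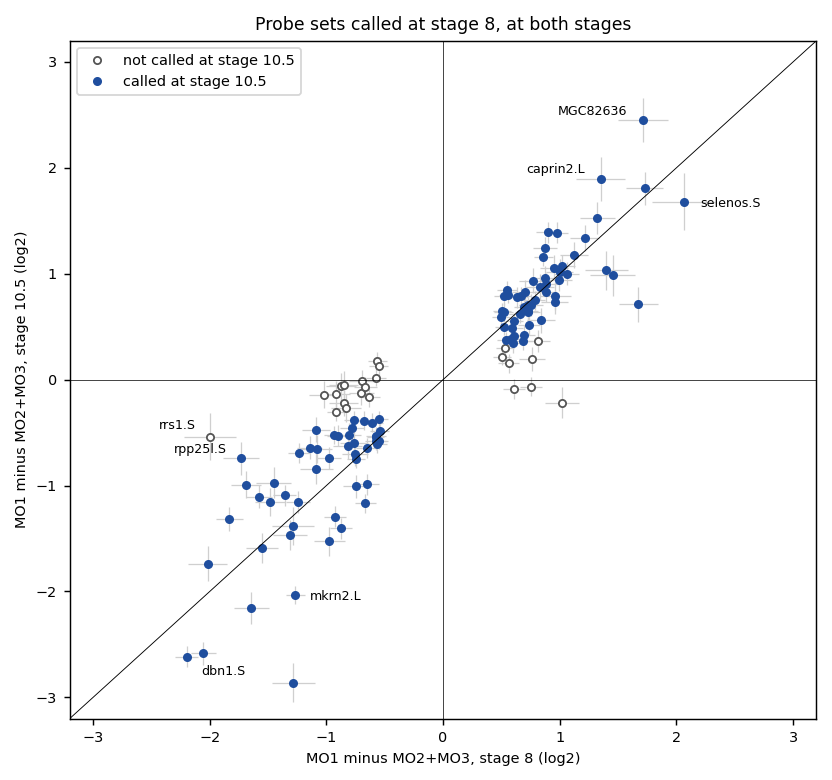
Log2 difference MO1 minus MO2+MO3 at stage 8 (horizontal) and stage 10.5 (vertical) for the 124 probe sets called at stage 8 with the replicate block, with moderated standard errors as bars. Filled points are the 101 also called at stage 10.5, open points the rest. The sign was the same at both stages in 118 of the 124. Points lie on both sides of the line of equal differences, as rrs1.S above it at -2.0 and -0.54 and mkrn2.L below it at -1.27 and -2.03.

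The change of the reagent difference between the stages was tested directly. With the block, 380 probe sets were called (1.17%), against 3 without it (0.00922%), and in 370 of the 380 the absolute difference was larger at stage 10.5. The test of the change uses the stage 8 arrays as well. Of the 124 probe sets called at stage 8, 6 were called for the change, against 1.17% of all probe sets. Among these mkrn2.L was lower in MO1 at both stages and more so at stage 10.5. The growth factor gene bmp6.S was lower in MO1 at stage 8 (-0.56, block adjusted p = 0.0335, limma) and had 0.18 at stage 10.5 (0.232), and sgcb.L, a subunit of the sarcoglycan complex, was higher in MO1 at stage 8 (0.75, 0.0193) and had -0.06 at stage 10.5 (0.761). On both the lowest array at stage 8 lay between 2 and 4, near the negative controls, as in 10 of the 124. Together with vstm2l.L they are the named 3 of the 6 probe sets whose sign was opposite at the stages.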

How the data were processed

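The 12 arrays held labelled RNA of whole embryos, amplified by in vitro transcription, per the labels' protocols. A single table of RMA values was deposited by the authors, and the submitters' processing notes name RMA without a version. The deposited values were taken as log2, since RMA works on that scale, although the base is not given in the sources used here. For every probe set the deposited values of a stage have a median within 5e-07 of 0 over their 6 arrays, so levels were removed. No header or label records this centring. The interval between powers of 2 that held the lowest array was read back from the precision to which the numbers are stored. This recovery, tested on simulated data, sets a minority of probe sets 1 interval too high. The number of arrays limits the precision.

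From 32635 probe sets the 96 controls were left out. The platform annotation names 1 gene for 15495 probe sets, several for 279 and none for 16765. Of the 15495 with 1 gene, 15384 were found in RefSeq's genes for Xenopus_laevis_v10.1. No coordinates are given, since no build is named for the array, and the sequences of the oligonucleotides were not used here.

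The linear model (limma 3.58.1, R 4.3.3) took all 12 arrays and gave each group a coefficient, without and with a fixed block for each replicate number of a stage, with two-sided moderated tests and Benjamini-Hochberg adjustment over 32539 probe sets. The numbers were taken to pair the arrays because same-numbered arrays of a stage deviated together (0.821 to 0.864), while the labels do not say what a number shares, and p-values measure only the spread between these samples. Standard errors after ± come from the fit with the block, except for the first 2 probe sets of dbn1.S. The fit was tested on simulated data.

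The genes named are those of the fam46 family, those called without the block, the 12 of largest difference per direction called with the block, up to 4 called members of each list and 2 against its median, their other probe sets and partner copies, and 2 per direction for the change between the stages. Named outside this rule, after their values were seen, were drg2.S, atp5pb.L, tnfaip3.S, nt5e.S, c9.L, bmp6.S, sgcb.L, vstm2l.L, both copies of slc9a3r1, other probe sets or partners of list members, and the list extremes tbxt.L, gsc.S, cdkn1a.L and casp10.L. The comparison, the gene lists and this rule were chosen with earlier results of these data known.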

Additional observations from a re-analysis of the deposited data

Results flagged for a closer look

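The reagent difference itself differed between the stages in 380 probe sets with the replicate block (limma, adjusted p under 0.05). The values here are the difference MO1 minus MO2+MO3 at stage 8, less that at stage 10.5. It was 3.53 for sertad1.L, with differences of -0.08 at stage 8 and -3.62 at stage 10.5. For prph.L, an intermediate filament gene, it was 2.12, with -0.10 and -2.22. In the other direction it was -1.88 for sag.L, an arrestin gene, with 0.02 and 1.90, and -1.71 for agap1.L, with 0.31 and 2.02. None of these 4 was called at stage 8. For mkrn2.L the value was 0.77, with -1.27 and -2.03, and this gene was called at both stages.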

How the results depend on the processing

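With the replicate block the count at stage 8 was 11 on the 4 arrays of the reagents, 20 on the 6 arrays of the stage, 279 over the 19909 probe sets with a median level at 4 or above, and between 28 and 69 without 1 array. The random block (correlation 0.636) called 93 and the fixed block 124. Without the block it was 0 on 4 or 6 arrays and with the mean over the probe sets of a gene, and between 0 and 3 without 1 array. At stage 10.5 the block called 3171 and the random block 2360, and without the block the count was 0 on 4 or 6 arrays, 81 by gene mean and between 12 and 94 without 1 array. With the block it was 1544 by gene mean and between 873 and 3025 without 1 array. For the change between the stages the block called 380. Calls shared by the stages, 101, were 10 on 4 arrays, 17 on 6 arrays and between 19 and 57 without 1 array, alternatives chosen after seeing the data. Quantile normalization and robust moderation moved no count by over 1.5 times, but single calls were lost. With the block at stage 8, quantile normalization gave 93 calls, 38 higher and 55 lower in MO1, and kept 89 of the 124. Robust moderation kept 120 of the 124. The cause of these shifts was not tested.

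Some named probe sets changed sign when 1 array was left out, and none of these was called at stage 8 with all arrays. The gene mean was 0.674 for chchd5.L, against -0.05 on its dim probe set, and -0.073 for tent5a.L, against 0.11 on its second probe set. Without the block, leaving out 1 array gave differences between -0.188 and 0.0848 for the dim probe set of chchd5.L, -0.0066 and 0.602 for eipr1.S, -0.0223 and 0.27 for the dim probe set of nmd3.L, and -0.0406 and 0.393 for pfdn6.S. They lay between -0.267 and 0.0717 for prph.L, -0.0631 and 0.101 for sag.L, -0.195 and 0.252 for sec22a.L, and -0.474 and 0.305 for sertad1.L. For tent5a.L they lay between -0.77 and 0.261 on the first probe set and between -0.419 and 0.636 on the second, and for the second of tent5b.S between -0.0578 and 0.179. With the block the limits were -0.171 and 0.0676 for chchd5.L, -0.284 and 0.089 for prph.L, -0.0829 and 0.121 for sag.L, -0.0787 and 0.135 for sec22a.L and -0.311 and 0.141 for sertad1.L. They were -0.544 and 0.0349 on the first and -0.33 and 0.547 on the second probe set of tent5a.L, and -0.129 and 0.25 for tent5b.S.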
